A study of Mus musculus with 2 samples.

Results

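The Hist1 cluster on mouse chromosome 13 was described here as all 1 kb windows in a pair of blocks of mm9 sequence, the first from 21800000 to 22139999 (340 windows) and the second from 23620000 to 23879999 (260 windows). These 600 windows were part of 2641863 windows over the whole genome. They were set against the 1480 windows of the sequence between the blocks. The windows were chosen by position and not by their tags. The study profiled binding of Brg1 in primary embryonic fibroblasts harvested at E13.5 from wild-type mouse embryos on a mixed background of C57BL/6 and 129. The 2 libraries came from the same kind of cells and differed in the antibody: the ChIP library was precipitated with a rabbit polyclonal antibody against SNF2β/BRG1, and the input library was made from chromatin with none. The sources used here do not say how many embryos were pooled.

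Brg1 is the ATPase of the Swi/Snf complex, which slides and evicts nucleosomes. Replication-dependent histone genes encode the bulk of the core histones H2A, H2B, H3 and H4 and of the linker histone H1. They are small genes without introns, they are present in many copies, and dividing cells transcribe them mostly in S phase. Their transcripts end in a stem-loop in place of a poly(A) tail, and in the nucleus the clusters gather at histone locus bodies together with the coactivator NPAT.

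In RefSeq gene order on GRCm38.p6, 55 histone genes of chromosome 13, 1 of them a pseudogene, formed 2 runs, within which fewer than 10 other protein-coding genes separated neighbours. The run from H2bc13 to H2bc11 held 24 of them and the run from H4c8 to H2ac1 held 31. Together they comprised 6 H1, 14 H2A, 15 H2B, 9 H3 and 11 H4 genes. The first run also contained Zfp184, Pom121l2 and Prss16, and the second contained Hfe, which encodes a regulator of iron uptake, Trim38 and 4 Slc17a transporter genes. The last pair of the second run, H2bc1 and H2ac1, encodes histones of the testis. Between the runs lay 41 protein-coding genes, of which 36 were Vmn1r genes for vomeronasal pheromone receptors. The other 5, Gm11295, Zfp322a, Abt1, Btn1a1 and Btn2a2, were not Vmn1r genes, and Btn2a2 was the protein-coding neighbour of the second run. The gene order comes from an assembly other than that of the tags, and no coordinates were carried over, so tags were not assigned to single genes.

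Promoter sequences are shown for the first gene of each histone family in chromosome order, because families in the cluster differ in the elements upstream of their starts. Each is the 250 bases before the start site from RefSeq on GRCm38.p6, written 5′ to 3′ on the strand of the gene. The positions are chr13:21780626-21780875, minus strand for H1f5, chr13:21716162-21716411, plus strand for H2ac13, chr13:21716184-21716433, minus strand for H2bc13, chr13:21717378-21717627, plus strand for H3c10 and chr13:21734784-21735033, plus strand for H4c11. These positions must not be set against the mm9 windows. Capitals mark matches on either strand to the TATA box letters TATAAA, to the CCAAT box, to the octamer known from H2B genes, ATTTGCAT, and to the element known from H1 genes, AAACACA.
H1f5 (H1): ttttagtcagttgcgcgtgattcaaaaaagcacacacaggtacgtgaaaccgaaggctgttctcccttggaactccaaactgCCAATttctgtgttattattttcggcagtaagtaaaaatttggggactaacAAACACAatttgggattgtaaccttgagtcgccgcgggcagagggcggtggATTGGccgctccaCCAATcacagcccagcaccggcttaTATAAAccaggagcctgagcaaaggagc
H2ac13 (H2A): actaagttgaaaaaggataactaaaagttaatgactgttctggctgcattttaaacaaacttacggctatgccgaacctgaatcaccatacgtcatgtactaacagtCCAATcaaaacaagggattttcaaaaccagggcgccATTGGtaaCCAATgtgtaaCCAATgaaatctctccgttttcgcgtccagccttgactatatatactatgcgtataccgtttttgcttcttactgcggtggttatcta
H2bc13 (H2B): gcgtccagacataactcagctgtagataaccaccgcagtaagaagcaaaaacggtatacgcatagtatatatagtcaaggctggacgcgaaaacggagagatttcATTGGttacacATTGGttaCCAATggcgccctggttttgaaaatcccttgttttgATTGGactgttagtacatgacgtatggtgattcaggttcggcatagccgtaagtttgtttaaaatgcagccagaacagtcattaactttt
H3c10 (H3): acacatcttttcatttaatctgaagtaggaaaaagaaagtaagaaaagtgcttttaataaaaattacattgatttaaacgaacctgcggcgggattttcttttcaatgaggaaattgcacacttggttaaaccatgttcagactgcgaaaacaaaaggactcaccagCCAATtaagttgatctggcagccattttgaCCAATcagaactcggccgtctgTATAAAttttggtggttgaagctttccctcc
H4c11 (H4): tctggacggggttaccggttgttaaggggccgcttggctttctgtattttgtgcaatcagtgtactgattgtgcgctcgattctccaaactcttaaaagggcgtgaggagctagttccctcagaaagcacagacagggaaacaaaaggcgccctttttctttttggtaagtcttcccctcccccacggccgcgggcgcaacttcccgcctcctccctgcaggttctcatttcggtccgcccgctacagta
H2ac13 and H2bc13 are divergent neighbours, so that 228 of the 250 bases are the same DNA read from opposite strands. Of 53 neighbouring pairs of histone genes within the runs, at least 13 stood head to head, and 10 of these 13 were an H2A gene beside an H2B gene. Strand was read from the promoter windows. A pair with a gene that lacked such a window could not be counted as head to head, so 13 is a lower limit.

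RefSeq promoter windows were at hand for 51 of the 55 histone genes. CCAAT occurred upstream of 43 of 51 (84.3%), against 34.5% of 27025 promoters of all genes. It was in every H1, H2A, H2B and H3 promoter matched (6, 13, 14 and 7) and in 3 of 11 H4 promoters. TATAAA was found in 26 of 51 (51.0%), against 12.97% of all promoters. The octamer was in 5 of 14 H2B and 5 of 13 H2A promoters and in none of the 24 of H1, H3 and H4, against 1.61% of all promoters. AAACACA was in 5 of 6 H1, 2 of 13 H2A and 2 of 14 H2B promoters and in none of H3 and H4, against 6.22% of all promoters. These are matches of letters within 250 bases and are not sites of binding. Divergent neighbours can share upstream bases, as H2ac13 and H2bc13 do, and a match can then count for both genes of a pair. With at least 10 head-to-head pairs of an H2A and an H2B gene, the counts of these families may not be independent. This holds for the octamer too. How far the other pairs overlap was not tested.

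The 2 histone blocks held more Brg1 ChIP tags than their input predicted, and the sequence between them held fewer. The blocks together had 5336 ChIP tags and 1629 input tags, and the sequence between had 5179 ChIP tags and 2570 input tags. Scaled by the autosomal totals, at 2.36 ChIP tags per input tag, the ChIP/input ratio was 1.39 in the blocks (exact 95% interval 1.31 to 1.47) and 0.855 in the sequence between (0.816 to 0.897). The ratio in the blocks was thus 1.63 times that in the sequence between (1.51 to 1.75, two-sided Fisher's exact test on tags, p = 6.79e-39 after Benjamini-Hochberg adjustment over 4 comparisons). Chromosome 13 as a whole was at 1.02.

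Each block was above the sequence between. The first block held 2786 ChIP and 896 input tags. Its ratio of 1.32 (1.22 to 1.42) was 1.54 times that of the sequence between (1.41 to 1.69, Fisher's exact test, adjusted p = 3.90e-22). The second block held 2550 and 733, a ratio of 1.48 (1.36 to 1.60), or 1.73 times (1.57 to 1.90, adjusted p = 1.41e-30, Fisher's exact test). The first block was at 0.894 times the ratio of the second (0.798 to 1.00, Fisher's exact test, adjusted p = 0.0504), so a difference between the blocks did not pass the threshold. With 1 library per group these tests compare the tags of the 2 libraries and not conditions. They treat tags as independent, while neighbouring tags rise and fall together, so the p-values are too small.

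Tag density differed between these stretches in the input as well. Relative to the autosomal mean of 5.47 ChIP tags and 2.32 input tags per kb, the blocks were at 1.63 in the ChIP (1.58 to 1.67) and at 1.17 in the input (1.11 to 1.23). The sequence between was at 0.640 in the ChIP (0.622 to 0.657) and at 0.748 in the input (0.719 to 0.777). The blocks were therefore above the mean and the sequence between below it in both libraries, and the distance was wider in the ChIP. Windows without any tag made up 5.17% of the blocks (31 of 600, exact interval 3.54 to 7.25), 10.1% of the sequence between (150 of 1480, 8.64 to 11.8) and 5.39% of the autosomes. How far the number of places where a tag can be mapped, or base composition, enters the ratio was not tested. All intervals cover counting error only.

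Set beside autosomal tiles of the same width with at least 100 input tags, 312 of 6982 tiles of 340 kb (4.47%) had a ratio at or above that of the first block, and 130 of 9101 tiles of 260 kb (1.43%) reached that of the second. The median tile was at 0.948 for the 340 kb width and 0.945 for the 260 kb width. By input tags alone 34.9% of tiles reached the first block and 25.2% the second. The blocks thus lay in the upper part of the genome in ratio, and were less set apart in input.

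**Figure D1:**
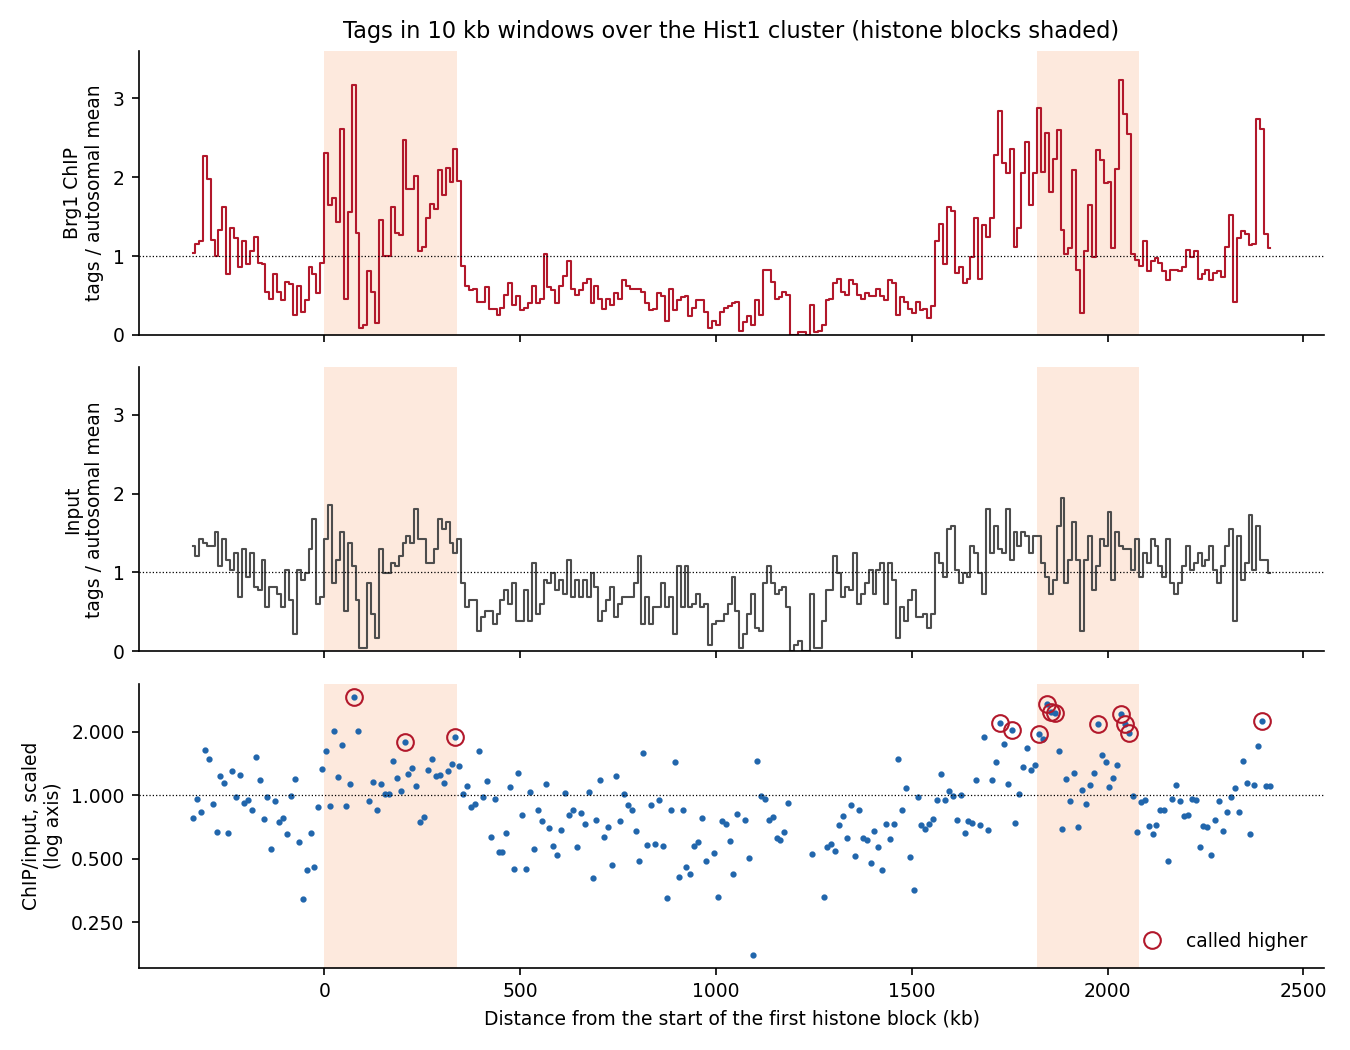
Tags in 10 kb windows from 340 kb before the first histone block to 340 kb after the second, as ChIP density (top), input density (middle; both as multiples of the autosomal mean) and scaled ChIP/input ratio on a log axis (bottom; windows with at least 10 tags). ChIP tags rise at both shaded blocks and already within the last 280 kb before the second, and further in the last 120 kb of these. Circles mark the windows called higher, 11 of them inside the blocks.

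The sequence between the blocks was not uniform, and the rise toward the second block began before its border. This split was chosen after the values were seen. The last 120 kb, from 23500000 to 23619999, had 1304 ChIP and 392 input tags (ratio 1.41, 1.26 to 1.58), and the remaining 1360 kb held 3875 and 2178, a ratio of 0.755 (0.716 to 0.796). The ratio in the second block was 1.05 times that in the 120 kb before it, with an interval of 0.907 to 1.20. In a wider split, also chosen after the values were seen, the last 280 kb were at 1.17 (1.08 to 1.27). The second block was at 1.26 times the ratio of these 280 kb (1.12 to 1.42). Without those 120 kb in the reference, the blocks were at 1.84 times the sequence between (1.70 to 1.99).

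The borders differed in how the signal changed. At the start of the first block, the first 10 kb window inside held 126 ChIP and 33 input tags (ratio 1.62) and the second 90 and 43 (0.888), and the window just outside held 50 and 16 (1.33), with 29 and 14 (0.879) in the next one out. None of these 4 windows was called, and the ratio of the second window inside was close to that of the second outside. At its end the last 2 windows inside had 106 and 32 (1.41) and 129 and 29 (1.89), the first outside 107 and 33 (1.38) and the next 48 and 20 (1.02). At the start of the second block the first 2 windows inside had 157 and 34 (1.96) and 113 and 26 (1.84), and the neighbours outside, going away from the block, 112 and 34 (1.40) and 90 and 29 (1.32). The signal of the second block ended before its border: from 23850000 to 23859999 there were 139 ChIP and 30 input tags (1.97), but the last 2 windows inside the block had 56 and 24 (0.990) and 52 and 33 (0.669). Beyond that border the values were 48 and 22 (0.926) and 65 and 29 (0.951).

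The 340 kb before the first block and the 340 kb after the second gave a second reference. The blocks, at 1.39, stood 1.51 times above these flanks together (1.40 to 1.64, Fisher's exact test, p = 3.11e-24), where 3708 ChIP and 1712 input tags gave 0.919 (0.868 to 0.974). The sequence between, at 0.855, was 0.930 times the flanks (0.863 to 1.00, Fisher's exact test, p = 0.0587), which did not pass the threshold. Its first 1200 kb alone, at 0.714, were 0.777 times the flanks (0.715 to 0.844, Fisher's exact test, p = 1.69e-09), in a split chosen after the values were seen.

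In windows of 10 kb the enrichment was spread over much of the blocks. The 60 windows of the blocks held from 5 to 177 ChIP tags, with a median of 90, and from 1 to 45 input tags, with a median of 28.5. The 148 windows between them held from 0 to 155 ChIP tags, with a median of 27, and from 0 to 42 input tags, with a median of 17. Of 58 windows in the blocks with at least 10 tags, 46 had a ratio above 1 (79.3%), against 34 of 139 between the blocks (24.5%) and 38.8% of all 249877 windows tested in the genome. The median ratio was 1.25 in the blocks, with quartiles of 1.05 and 1.71, and 0.758 in the sequence between, with quartiles of 0.588 and 0.994, against 0.898 over all windows tested. The middle ranges of the blocks and the sequence between did not overlap, but their full ranges did, from 0.669 to 2.94 in the blocks and from 0.175 to 2.19 between them.

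**Figure D2:**
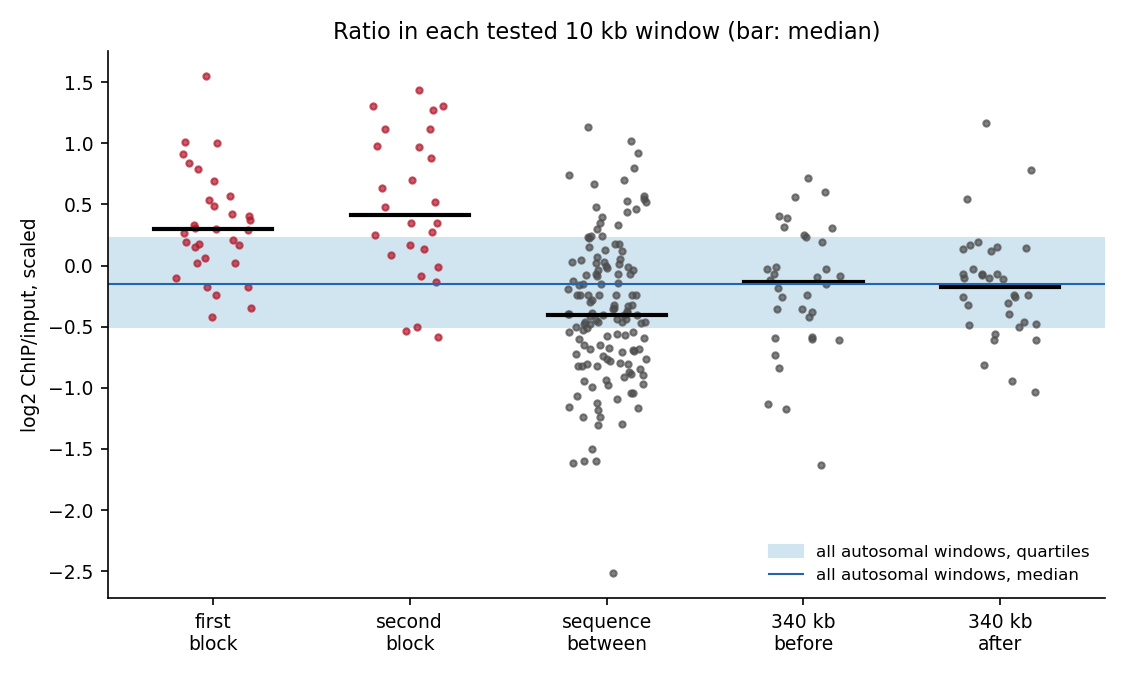
Scaled ChIP/input ratio (log2) of every tested 10 kb window in the first block, the second block, the sequence between and the 340 kb on either side, with the median of each as a bar and the median and quartiles of all autosomal windows as a line and a band. The medians of the blocks lie above the band, at ratios of 1.23 and 1.33, and that of the sequence between lies below the genome median, at 0.758.

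Calls required a ratio of 1.5 or more (its inverse or less for a lower call) and an adjusted p under 0.05 (exact binomial test per window, two-sided, Benjamini-Hochberg over all windows of the genome). By this rule 11 of 58 windows of 10 kb in the blocks were higher, or 18.97% (9.87 to 31.4), against 3.98% of all windows tested. In the sequence between 2 of 139 were higher, and both lay within the last 120 kb. None of the 58 was called lower by this test, against 1.11% of all windows, and 1 of 139 between the blocks was. At an unadjusted p under 0.05, 18 of the 58 were higher, against 8.06% of all windows, and 0 were lower, against 8.6%. The first block had 3 higher windows of 32 tested (9.38%) and the second 8 of 26 (30.8%). The exact 95% interval of the first block's share began at 1.98%, below the 3.98% of all windows. That share was therefore not told apart from the share in the genome. The interval of the second block began at 14.3%, above it. These intervals take windows as independent draws, while neighbouring windows rise and fall together, so they are too narrow. The 8 windows of the second block included a pair of stretches of 3 adjacent windows. Its interval therefore does not settle whether its share lies above that of the genome. The shares of the blocks were not tested against each other.

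The 11 called windows held 1552 ChIP and 296 input tags, or 29.1% of the ChIP and 18.2% of the input tags of the blocks. Since they were called on these tags, their ratio of 2.23 is a description. The other 49 windows held 3784 and 1333, a ratio of 1.20 (1.13 to 1.28), so the remainder of the blocks was still above 1 and above the sequence between. In the first block the windows not called were at 1.23 and in the second at 1.16.

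The window with the highest lower bound of the ratio was in the first block, from 21870000 to 21879999. Its 173 ChIP and 25 input tags gave a ratio of 2.94 (1.92 to 4.66, exact binomial test, adjusted p = 3.92e-06), and 0.544% of all tested windows reached that ratio. Its tags were not in a single pile: the 1 kb windows within it held from 7 to 26 ChIP tags.

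The other 5 windows named by this rule were in the second block and formed a pair of stretches. Near its start, the windows at 23640000, 23650000 and 23660000 held 140, 99 and 122 ChIP tags and 22, 17 and 21 input tags. As 1 stretch of 30 kb their 361 ChIP and 60 input tags gave 2.55 (1.94 to 3.41). Toward its end, the windows at 23830000 and 23840000 held 177 and 153 ChIP tags and 31 and 30 input tags. With the called window that follows, at 23850000, they formed another stretch of 30 kb with 469 and 91, a ratio of 2.19 (1.74 to 2.77). Adjusted p for these 5 windows ranged from 9.61e-05 at 23830000 to 0.00884 at 23650000 (exact binomial test). The ratios carry the bias of ranking windows on their own counts.

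The remaining called windows stood alone. In the first block they began at 22000000, with 135 ChIP and 32 input tags (ratio 1.79), and at 22130000, the last window of the block. In the second block they began at 23620000, the first window of the block, and at 23770000, with 128 and 25 (ratio 2.17).

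After the first of these stretches the signal of the second block fell back: the windows starting from 23680000 to 23760000 had ratios between 0.688 and 1.27. From 23680000 to 23689999 73 ChIP and 45 input tags gave a ratio of 0.688 (0.468 to 1.02), the lowest upper bound among the windows of the blocks. The next by that rule were the last window of the second block, given above, and the window at 22040000 in the first, with 58 and 33 tags (0.746, 0.478 to 1.18). None of these 3 passed the test (exact binomial test, adjusted p of 0.335, 0.404 and 0.597).

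**Figure D3:**
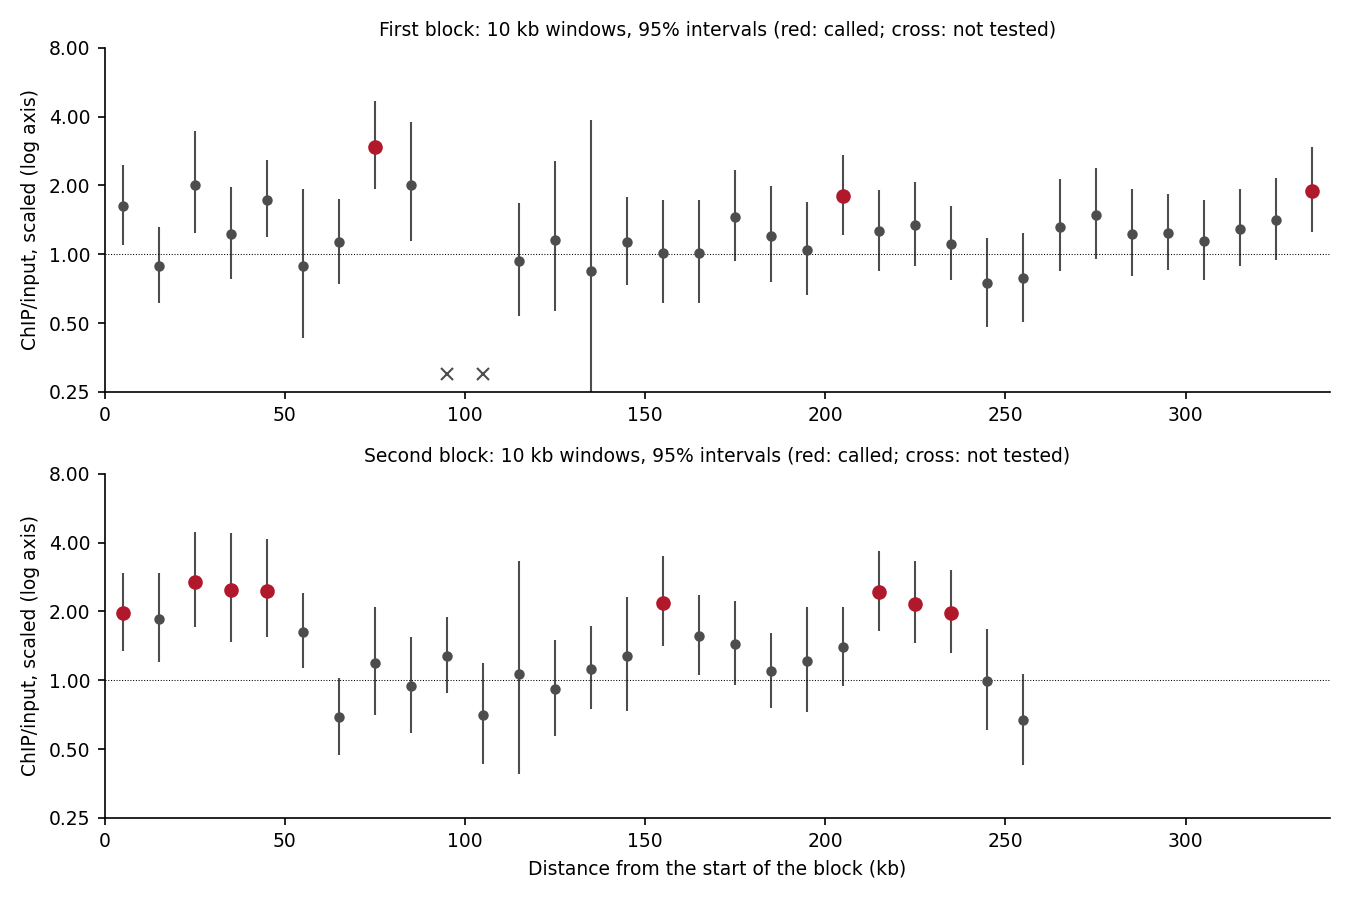
Scaled ChIP/input ratio with exact 95% intervals in the 10 kb windows of the first block (top) and the second block (bottom), on a log axis against the distance from the start of the block. Red points are the 3 and 8 windows called higher, and crosses are 2 windows with fewer than 10 tags. In the second block the called windows gather near its start and toward its end, and the windows starting from 23680000 to 23760000 have ratios between 0.688 and 1.27.

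The first block contained a stretch with few tags in both libraries, from 21890000 to 21939999. It was the longest run of 10 kb windows in the blocks with both libraries below their autosomal mean, a rule set after the values were seen. It held 94 ChIP and 37 input tags, which is 0.344 times the autosomal mean in the ChIP (0.278 to 0.420) and 0.319 times in the input (0.224 to 0.439). Its ratio of 1.08 (0.730 to 1.62) was set by few tags, and 20 of its 50 windows of 1 kb held none. Promoter sequence in the first run was partly repeated. In 6 neighbouring genes of that run, H2bc23, H2ac23, H4c17, H4c18, H2ac24 and the gene listed as H4bc24 (older symbol Hist1h2br), between 75.3% and 100% of the 30-base stretches of the promoter also occurred in another promoter. In 41 of the 51 histone promoters no such stretch was repeated elsewhere among promoters, and in 10 (19.6%) at least 1 was, against 13.1% of all promoters. Whether the repeated genes lie in the stretch of few tags was not tested.

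At 1 kb no window of the blocks was called. Of 600 windows 372 held at least 10 tags, and 0 were higher and 0 lower by the exact binomial test with adjustment over the genome, against 0.38% and 0.00666% of 706215 windows tested. At an unadjusted p under 0.05, 31 were higher (8.33%, against 5.98% of all windows) and 5 lower (1.34%, against 1.7%). In the sequence between 13 of 199 were higher (6.53%). The minimum of 10 tags is on the sum of both libraries, so windows with more ChIP tags were tested more often. These shares of higher and lower windows therefore describe the windows tested and not all windows of 1 kb. The densest 1 kb window of the blocks had 36 ChIP tags, and the densest of the sequence between had 37.

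The 5 windows of 1 kb with the highest lower bound were looked up after the values were seen. The window at 22073000 held 21 ChIP and 0 input tags, with an exact lower 95% bound of 2.21 for the ratio. That at 21809000 held 18 and 0, with a lower bound of 1.87. The window at 23841000 held 29 and 1, and those at 21826000 and 23839000 held 24 and 1 each. Their adjusted p ranged from 0.0908 to 0.194 (exact binomial test). Among them 23839000 and 23841000 lay in the called stretch toward the end of the second block.

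To see how focal the signal was without judging windows on the tags that chose them, the 60 windows with most plus-strand ChIP tags (at least 9 each, against a median of 4 in the blocks) were measured on minus-strand tags. On that strand they had 494 ChIP and 88 input tags, for a ratio of 2.38 (1.90 to 3.02). The other 540 windows held 2200 and 738, a ratio of 1.27 (1.16 to 1.38). ChIP density was 3.01 times the autosomal mean in the chosen windows and 1.49 times in the others, while input density was 1.26 and 1.18 times. The chosen windows were therefore higher in the ChIP with little change in the input.

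The signal around these windows fell off over a few kb. The ratio stayed above 1 out to 10 kb, but the blocks as a whole were at 1.39. The values at 5 to 10 kb are therefore not told apart from the level of the blocks. At 2 kb on either side the ratio was 2.16 and 1.84, at 5 kb it was 1.46 and 1.60, and at 10 kb it was 1.48 (1.16 to 1.91) and 1.46 (1.15 to 1.87). Input density stayed between 1.10 and 1.30 times the mean at these distances. In the sequence between, the 148 windows chosen in the same way had a ratio of 1.40 (1.20 to 1.65), with 668 ChIP and 202 input tags on the minus strand, and the other 1332 had 0.783 (0.727 to 0.845). There the ratio was 1.10 and 1.07 at 2 kb, and 1.17 and 0.959 at 10 kb. The lowest plus-strand count among the chosen windows was 9 in the blocks and 4 in the sequence between, so the choice was less strict between the blocks.

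**Figure D4:**
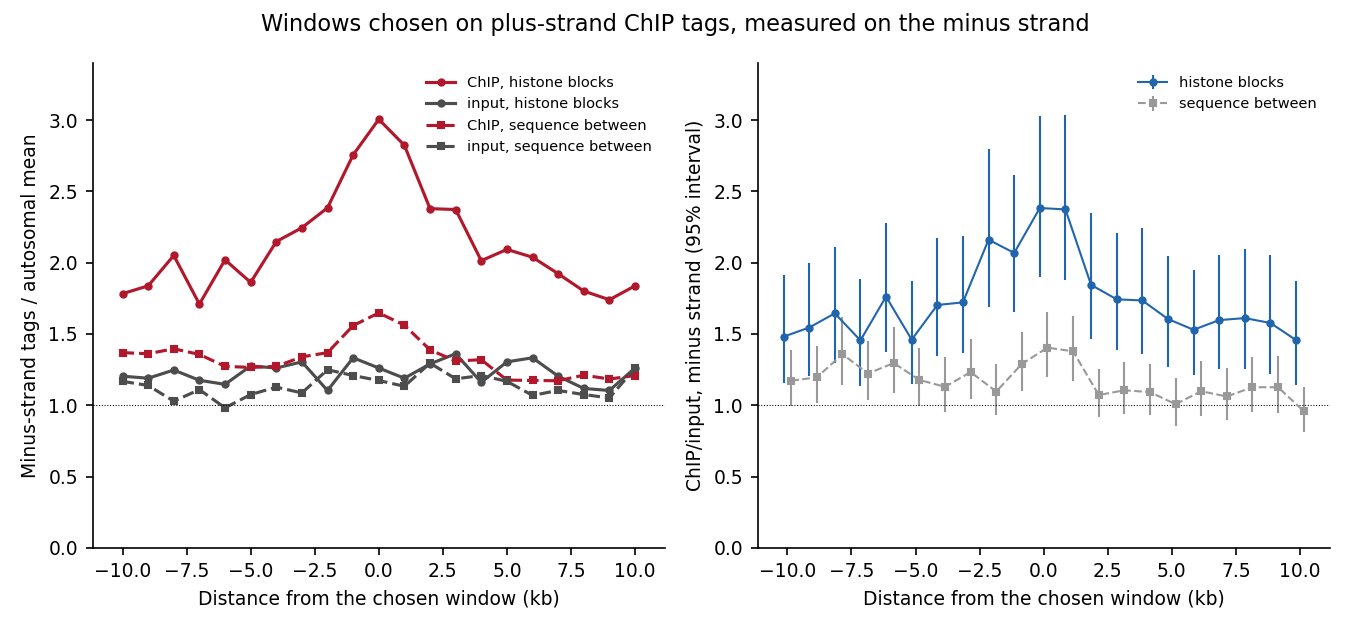
Windows of 1 kb in the top 10% by plus-strand ChIP tags, measured on minus-strand tags at distances of up to 10 kb, in the histone blocks (60 windows) and the sequence between (148 windows). The left panel gives ChIP and input density as multiples of the autosomal mean, and the right panel the scaled ChIP/input ratio with exact 95% intervals, which is 2.38 at the centre in the blocks and 1.40 in the sequence between.

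Across the 60 windows of 10 kb in the blocks, ChIP and input counts were correlated (Pearson r = 0.61, Spearman rho = 0.53), as they were over the 148 windows between (r = 0.78, rho = 0.81). These are descriptions, since the windows share the 2 libraries. Plus-strand tags made up 49.5% of the ChIP and 49.3% of the input tags in the blocks, against 49.3% and 50.8% in the sequence between. Positions with 2 tags, the most either library lists, numbered 69 in the ChIP and 0 in the input within the blocks, and 51 and 0 in the sequence between.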

How the data were processed

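ChIP and input libraries (1 each) were analysed from tag counts. Each deposited file lists a chromosome, strand, position and count of tags, with no normalization. The submitters' processing notes name Bowtie and mm9; versions, settings and any filter on repeated tags are not given in the sources used here. The libraries held 13581267 ChIP and 5778620 input tags, 13215004 and 5608004 on autosomes. Whether positions count from 0 or 1 is not stated, so they may be off by 1 bp. It is also not stated whether a minus-strand position is the 5′ end of its tag, which was assumed here. If it is not, minus-strand tags are misplaced by more than 1 bp, in the windows and in the minus-strand profile.

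Tags were moved 75 bp along their strand and counted in windows of 1 kb and 10 kb. Ratios were scaled by autosomal totals, with exact conditional (Clopper-Pearson) 95% intervals; densities have exact Poisson intervals. Windows with at least 10 tags were tested over the whole genome with an exact binomial test, the p being double the smaller tail. Densities leave out windows before the first tag of an autosome. The 10 kb windows named were the 6 of the blocks with the highest lower bound, the 3 with the lowest upper bound and those at the borders; no 1 kb window was called. The blocks, lists and tests were chosen with earlier results of these data known. Alternatives covered scaling, repeated tags, movement of tags, window size, minimum and reference. The window and Fisher tests were checked on simulated counts drawn independently. That check does not cover neighbouring tags that rise and fall together. RefSeq gene names, order and promoters are on GRCm38.p6. Python 3.11.15, numpy 2.4.6, scipy 1.17.1, pandas 2.3.3 and matplotlib 3.10.9 were used.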

Additional observations from a re-analysis of the deposited data

How the results depend on the processing

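The ratio of the blocks over the sequence between, 1.63, stayed above 1 and past the threshold of Fisher's exact test under every alternative run. That test treats tags as independent, so passing it is a weak standard here. It was 1.54 for the first block alone, 1.73 for the second alone and 1.51 against the flanks. With 1 tag per position or per 5 bp it was 1.62, without the 10 fullest windows of each 1.65, and in windows with at least 1 input tag 1.76. That last filter drops 388 of 1480 windows between the blocks and 81 of 600 in them. It can lower ChIP counts only, and so tends to raise this value. A minimum of 10 tags keeps 372 of 600 windows in the blocks and 199 of 1480 between them. This minimum is on the sum of both libraries, so windows with more ChIP tags pass more easily. Because it keeps a smaller part of the sequence between, it can raise the ratio there and lower the value for the blocks over it. How far it does so was not tested. The lowest values were 1.19 (1.07 to 1.33) under that minimum and 1.19 (1.07 to 1.31) against only the 280 kb before the second block. It was 1.95 without those 280 kb and 1.84 without the last 120 kb; these 3 references were chosen after the data were seen. Scaling to all chromosomes or to chromosome 13 put the blocks at 1.39 and 1.37 and the sequence between at 0.857 and 0.842.

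The 11 windows of 10 kb called higher became 7 at a ratio of at least 2, a stricter threshold under which 2.93% of all windows passed, and numbered 9 to 11 under the other alternatives, against 3.33% to 4.13% of all windows. At 1 kb there were 0, but 10 of 68 with a minimum of 20 tags, where 19.4% of all windows tested in the genome passed, and 3 of 260 (against 0.802% of all) in windows of 2 kb. No window of the blocks was called lower under any setting. Lower calls were rare in the genome as well, from 1943 of 249764 to 3691 of 249877 windows of 10 kb. The 0 of 58 in the blocks is near that share. The held-out ratio of 2.38 was 1.88 in the top 20% of windows, which takes weaker windows, and between 2.13 and 2.31 under the other alternatives. No paired analysis was possible because there is 1 ChIP and 1 input library. At a mean of 2.32 input tags per kb, counting error is wide for single 1 kb windows; at 23841000 the interval of the ratio ran from 2.04 to 503.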
